A study of Mus musculus with 6 samples.

Results

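The 8 genes Vil1, Krt20, Cdh17, Cdhr2, Lgals4, Dpp4, Tmprss2 and Ptprh encode structural and surface proteins of the intestinal absorptive cell, the enterocyte. They were chosen by their measured levels in the same 6 tumours, with the sgUhrf1 against sgNT comparison in view, and by their known place at the brush border or cell surface. They are 8 of the 10766 genes that could be given a row of their own in the count tables, of which 4579 passed the filter on low counts. All 8 passed it. Cdhr2 and Ptprh passed through the sgUhrf1 tumours, which were higher, so a difference was built into their place among the genes tested.

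The tumours labelled sgUhrf1 grew from a stable LG1233-OVA line made with CRISPR/Cas9 to knock out Uhrf1, and those labelled sgNT from the matching line with a non-targeting guide, labelled wild type. LG1233-OVA is a mouse lung cancer line, and its name marks the model antigen ovalbumin, which both lines share. In both groups 1000000 cells were placed under the skin of female C57BL/6 mice, and whole tumours, with the blood vessels, fibroblasts and immune cells of the host, were taken on day 27, 3 per group. Whether a line is 1 clone, where the guide cuts and how old the mice were is not given in the sources used here. The replicates are labelled biological, with no statement that each is a separate mouse or was handled separately, so the p-values measure the spread between these tumours.

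An enterocyte carries a dense layer of microvilli on its apical face, each a bundle of actin filaments held together by bundling proteins such as villin. Protocadherins at the microvillus tips join neighbouring microvilli into the packed brush border, while other cadherins hold the cells to each other along their sides. The membrane of the apical face is studded with digestive peptidases, serine proteases and receptor phosphatases, and sugar-binding galectins cross-link it into rafts. These genes are best known from gut epithelium, though Dpp4 and Tmprss2 are also made in other tissues.

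The promoters of Vil1, Lgals4, Cdhr2 and Krt20 are shown because Uhrf1 is known for keeping up DNA methylation at CpG sites, and because Krt20 is the member with the smallest difference between the groups. The windows run from 250 bases before to 50 after the transcription start, from RefSeq on build GRCm38.p6, and capitals mark CpG. They lie at chr1:74409134-74409433 (plus strand, Vil1), chr7:28833544-28833843 (plus, Lgals4), chr13:54701213-54701512 (plus, Cdhr2) and chr11:99438104-99438403 (minus, Krt20).
Vil1: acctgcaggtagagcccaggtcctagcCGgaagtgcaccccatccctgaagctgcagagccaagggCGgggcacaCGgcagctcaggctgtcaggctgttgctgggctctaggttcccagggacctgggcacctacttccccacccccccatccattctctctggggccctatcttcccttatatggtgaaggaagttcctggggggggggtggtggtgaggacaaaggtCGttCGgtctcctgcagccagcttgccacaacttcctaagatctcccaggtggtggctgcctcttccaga
Lgals4: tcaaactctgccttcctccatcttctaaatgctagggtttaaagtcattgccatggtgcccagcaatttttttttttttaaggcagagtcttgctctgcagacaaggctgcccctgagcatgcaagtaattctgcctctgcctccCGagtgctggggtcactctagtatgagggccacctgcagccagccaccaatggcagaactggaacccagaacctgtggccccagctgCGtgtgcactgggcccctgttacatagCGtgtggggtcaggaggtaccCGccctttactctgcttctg
Cdhr2: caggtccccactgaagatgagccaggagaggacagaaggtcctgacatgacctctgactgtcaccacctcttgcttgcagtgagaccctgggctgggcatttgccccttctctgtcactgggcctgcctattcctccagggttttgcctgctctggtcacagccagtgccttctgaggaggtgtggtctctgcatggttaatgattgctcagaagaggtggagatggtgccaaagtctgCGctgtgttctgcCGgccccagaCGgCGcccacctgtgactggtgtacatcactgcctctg
Krt20: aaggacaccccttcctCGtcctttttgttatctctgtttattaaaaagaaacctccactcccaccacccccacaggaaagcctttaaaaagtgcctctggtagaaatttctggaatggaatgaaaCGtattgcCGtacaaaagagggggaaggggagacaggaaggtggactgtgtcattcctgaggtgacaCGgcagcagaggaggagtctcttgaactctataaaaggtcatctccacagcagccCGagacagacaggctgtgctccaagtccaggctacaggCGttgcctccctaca

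A window was found for 7 of the 8 members; Cdh17 is named only. The Vil1 window holds 5 CpG, Lgals4 and Cdhr2 4 each, Krt20 6, Dpp4 and Ptprh 4 each, and Tmprss2 13. The median over all 32851 windows was 7, so 6 of the 7 were at or below it and Tmprss2 was above. Whether the number of CpG bears on the difference between the groups was not tested. DNA methylation was not measured in these tumours.

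Short motifs known for gut transcription factors were searched on both strands of the same windows. A TTTAT match can overlap the reverse complement of AGATAA. The CDX motif TTTAT was in the windows of Krt20, Dpp4 and Ptprh, 3 of 7, against 40.0% of all windows. The GATA motif AGATAA was in those of Krt20 and Dpp4, 2 of 7, against 11.2% of all. The HNF4 motif CAAAGT and the HNF1 motif GTTAAT were each in the Cdhr2 window alone, 1 of 7, against 14.4% and 7.10% of all. A match describes the letters in the window, and no match says nothing of a factor.

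The stretches that identify the Tmprss2 and Ptprh rows are shown because these 2 rows hold the fewest exon bases of all members, each in a single exon. The rows of Lgals4 and Cdhr2 are also named by a single exon. In every member row but that of Cdh17, most bases are introns or lie outside the gene. The 2 stretches are from GENCODE M21 on build GRCm38, both on the minus strand and wholly coding. They lie in exon 3 of Tmprss2 at chr16:97596850-97596959 and exon 16 of Ptprh at chr7:4552628-4552733.
Tmprss2: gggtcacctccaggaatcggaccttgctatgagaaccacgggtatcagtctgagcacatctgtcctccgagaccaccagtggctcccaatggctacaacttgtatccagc
Ptprh: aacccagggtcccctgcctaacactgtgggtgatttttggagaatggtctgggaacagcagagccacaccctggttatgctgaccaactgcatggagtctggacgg

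Rows carry names from a later genome build than the alignments, so each was named by the GRCm38 exons at its listed positions. Cdh17 and Ptprh stand under their own names. The reads of the other 6 stand under other names, among them Vil1 under Slc11a1, Krt20 under Krt40, Lgals4 under Rasgrp4 and Dpp4 under Fap. The part of each gene that was read differs. The Cdh17 row (chromosome 4, 11758147 to 11817895, plus strand) covers all 18 exons of the gene, 4474 bp. The Vil1 row covers 388 coding bp of its 20 exons (gene on chromosome 1, 74409376 to 74435559, plus strand), the Krt20 row 178 bp (chromosome 11, 99428403 to 99438150, minus) and the Lgals4 row 245 bp of exon 2 (chromosome 7, 28833854 to 28841708, plus). The Cdhr2 row covers 412 coding bp of exon 19 (chromosome 13, 54701461 to 54736662, plus) and the Dpp4 row 704 bp (chromosome 2, 62330073 to 62412231, minus). The rows of Tmprss2 (chromosome 16, 97564682 to 97611195, minus) and Ptprh (chromosome 7, 4548612 to 4604041, minus) cover 110 and 106 bp. All rows but that of Cdh17 also take in introns or flanking bases, and counting was without strand. Levels are in counts per 1000000 TMM-scaled counts (CPM), not per length, so they are compared between tumours and not between genes.

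Total counts ran from 5462555 to 6375069 per tumour, and 16051 to 18771 rows had reads. Uhrf1 itself stood at 121, 73.0 and 89.9 CPM in the sgUhrf1 tumours and at 133, 136 and 98.2 CPM in the sgNT tumours. Its groups overlapped, with a log2 fold change of -0.37 ± 0.23 (SE; edgeR adjusted p = 0.227). The row used for Uhrf1 is listed as Mpnd, and 690 of its 2305 bp are exon of Uhrf1. A guide that disables a protein need not lower its RNA, but why the groups overlapped was not tested. Of the defining lung markers, Nkx2-1 was nearly absent, with 1 count in all 6 tumours on a row shared with a neighbour, and Sftpc and Napsa were not measured on a row named by position. Among the 4 lung markers tested on a row of their own, picked for naming after their values were seen, Sftpd stood at 8.68, 64.9 and 56.7 CPM in sgUhrf1 tumours and at 0.158, 0.741 and 0.177 CPM in sgNT tumours. Hopx stood at 3.54, 3.02 and 3.08 CPM in sgUhrf1 tumours and at 0, 0.148 and 0 CPM in sgNT tumours. Sftpd and Hopx had under 10 counts in each sgNT tumour and so entered the test only through the sgUhrf1 tumours, which fixes their direction. Sftpb (log2 fold change 0.80 ± 0.53, SE) and Abca3 (-0.51 ± 0.38) did not pass. These 4 summed to 26.6 to 94.9 CPM in sgUhrf1 tumours and 18.1 to 28.9 CPM in sgNT tumours. Among markers of host cells, those of T cells were higher. For scale, 20.6% of the 4579 genes tested on a row of their own were higher and 21.5% lower with edgeR. All 4 T cell markers tested on a row of their own were higher, and the 6 T cell genes with a row of their own summed to 81.4 to 214 CPM in sgUhrf1 tumours against 7.26 to 23.9 CPM in sgNT tumours, with Cd6 at 0. Among other marker lists, 1 of 6 leukocyte rows was higher, 1 of 6 fibroblast rows was higher and 1 lower, 1 of 2 keratinocyte rows was higher and 1 lower, and none of 5 endothelial, 2 smooth muscle and 2 skeletal muscle rows passed with edgeR. At an unadjusted p of 0.05, 2 leukocyte and 2 fibroblast rows were lower, as with limma-voom, and DESeq2 called 1 and 2 lower. At that unadjusted p, 1 row of each of the last 3 lists was higher and 1 endothelial row lower; DESeq2 called 1 skeletal muscle and 1 smooth muscle row higher and 1 endothelial row lower, and limma-voom 1 skeletal muscle row higher. The 6 skeletal muscle genes with a row of their own summed to 209, 22.5 and 27.0 CPM in sgUhrf1 tumours and to 4.75, 262 and 1.06 CPM in sgNT tumours, so sgUhrf1 replicate 1 and sgNT replicate 2 held the most muscle RNA. In bulk tumours, fewer cells of a type and less RNA per cell cannot be told apart.

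Of the 8 members, 6 were higher in sgUhrf1 tumours (Vil1, Cdh17, Cdhr2, Lgals4, Tmprss2 and Ptprh), none was lower, and Krt20 and Dpp4 did not pass, at an edgeR adjusted p of 0.05. None was lower at an unadjusted p of 0.05, with DESeq2 or with limma-voom either. In the same comparison 20.6% of the 4579 genes with a row of their own were higher and 21.5% lower, and over all 10503 rows tested 20.2% were higher and 19.7% lower. The same 6 members had every sgUhrf1 tumour above every sgNT tumour, which held for 26.6% of all rows tested. Since the members were chosen on this comparison, nothing is read from these shares, and the fold changes below are a description without a test. The median log2 fold change of the 8 was 3.90 (0.35 to 10.03), also with Ptprh at its lower bound, while that of all rows tested was 0.019.

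**Figure D1:**
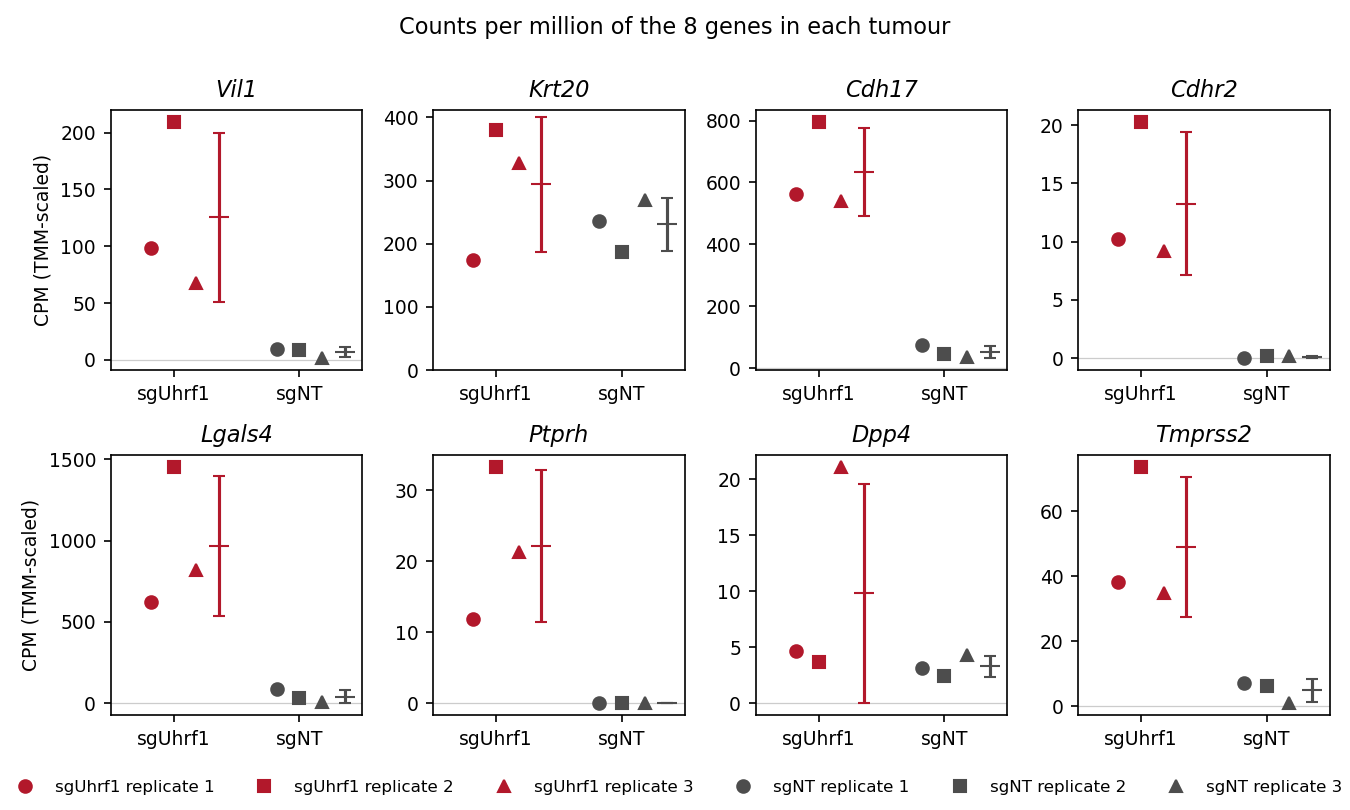
Level of each of the 8 genes in every tumour, in TMM-scaled CPM on linear axes that start near 0, with 1 panel per gene and its own scale; points are tumours (circle, square and triangle for replicates 1, 2 and 3) and bars are the mean ± SD of 3. In 6 panels every sgUhrf1 tumour lies above every sgNT tumour, and in the panels of Krt20 and Dpp4 the groups overlap.

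Vil1 encodes villin, which bundles and severs actin in the microvillus core and is a standard marker of gut epithelium. It stood at 98.6, 210 and 67.7 CPM in the sgUhrf1 tumours and at 9.34, 9.04 and 1.60 CPM in the sgNT tumours. The lowest sgUhrf1 tumour was well above the highest sgNT tumour, and sgNT replicate 3 was lower than the other sgNT tumours. The means were 125 ± 74.7 CPM in sgUhrf1 and 6.66 ± 4.39 CPM in sgNT (SD, n = 3 each), and the log2 fold change was 4.22 ± 0.62 (SE). A second row, shared with exons of the neighbouring gene Usp37, covers another 700 bp of Vil1. It stood at 294, 554 and 533 CPM in sgUhrf1 tumours and at 44.0, 28.9 and 20.7 CPM in sgNT tumours, a log2 fold change of 3.88 ± 0.35. Both rows put the sgUhrf1 tumours higher by a like factor.

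Krt20 encodes keratin 20, an intermediate filament protein of the mature, upper cells of gut epithelium. It stood at 174, 380 and 328 CPM in the sgUhrf1 tumours and at 236, 186 and 270 CPM in the sgNT tumours. The groups overlapped: sgUhrf1 replicate 1 was the lowest of all 6 tumours and the other two were the highest. The means were 294 ± 107 CPM in sgUhrf1 and 231 ± 41.9 CPM in sgNT (SD, n = 3 each), a log2 fold change of 0.35 ± 0.28 (SE). On this row the sgNT tumours stood at levels close to those of the sgUhrf1 tumours. Of its 1320 bp, 178 are exon of Krt20, 1050 lie in introns of Krt20 and 92 outside the gene. The share of the count from introns and flanking bases was not tested.

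Cdh17 encodes liver-intestine cadherin, an adhesion protein of the lateral membrane of enterocytes. It stood at 561, 797 and 540 CPM in the sgUhrf1 tumours and at 75.7, 46.0 and 36.9 CPM in the sgNT tumours. The groups were far apart, and the tumours within each were closer to each other than for any other member that had no overlap and no sgNT tumour at 0. The means were 633 ± 142 CPM in sgUhrf1 and 52.8 ± 20.3 CPM in sgNT (SD, n = 3 each), and the log2 fold change was 3.58 ± 0.31 (SE). Because its row covers the whole gene and nothing else, its count is the least affected by the naming.

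Cdhr2 encodes a protocadherin that links the tips of neighbouring microvilli together with its partner Cdhr5. It stood at 10.3, 20.3 and 9.24 CPM in the sgUhrf1 tumours and at 0, 0.148 and 0.177 CPM in the sgNT tumours. It was close to absent in sgNT tumours, with 2 counts over all 3 against 228 in the sgUhrf1 tumours. The ratio of the depth-scaled counts was 129, with an exact 95% binomial interval of 35.4 to 1074 that covers counting error only. A row shared with exons of Gprin1 covers another 114 bp of Cdhr2 and stood at 38.2, 50.2 and 45.1 CPM in sgUhrf1 tumours and at 0.792, 0.148 and 0 CPM in sgNT tumours. A pair of rows that touch only 8 and 2 bp of Cdhr2 exons, under the minimum of 50 bp, held 8 and 19 counts in the sgUhrf1 tumours and 0 in the sgNT tumours. All 4 rows that touch the gene held more counts in the sgUhrf1 tumours.

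Lgals4 encodes galectin 4, a lectin of the enterocyte that stabilises lipid rafts of the apical membrane and carries brush border enzymes to it. It stood at 625, 1456 and 821 CPM in the sgUhrf1 tumours and at 83.8, 29.8 and 3.72 CPM in the sgNT tumours. The groups did not overlap, and the sgNT tumours differed among themselves by 22.5-fold. The means were 967 ± 434 CPM in sgUhrf1 and 39.1 ± 40.8 CPM in sgNT (SD, n = 3 each), and the log2 fold change was 4.63 ± 0.87 (SE). Another row of the gene, over 65 bp of exon and just above the naming minimum, stood at 18.1, 26.2 and 9.24 CPM in sgUhrf1 tumours and at 1.43, 0 and 0.177 CPM in sgNT tumours, a log2 fold change of 5.01 ± 0.83. It put the groups in the same order, with sgUhrf1 replicate 2 and sgNT replicate 1 again the highest of their groups. Of the main row, 5474 bp lie outside the gene, and some mouse strains carry a close copy of Lgals4 whose reads would not be told apart.

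Dpp4 encodes dipeptidyl peptidase 4, a brush border enzyme that trims dipeptides from peptides and is also known as CD26 on T cells and fibroblasts. It stood at 4.60, 3.65 and 21.1 CPM in the sgUhrf1 tumours and at 3.17, 2.37 and 4.25 CPM in the sgNT tumours. The groups overlapped, and only sgUhrf1 replicate 3 stood apart. The means were 9.79 ± 9.82 CPM in sgUhrf1 and 3.26 ± 0.945 CPM in sgNT (SD, n = 3 each), and the log2 fold change was 1.57 ± 0.68 (SE), or 0.34 without sgUhrf1 replicate 3. That tumour was also the highest in T cell RNA: Lck, a T cell kinase named after its values were seen, stood at 48.2, 31.9 and 93.0 CPM in sgUhrf1 tumours and at 4.75, 1.78 and 11.3 CPM in sgNT tumours. It was the highest in Pi16 as well, a fibroblast marker, likewise named afterwards, on a row shared with BC004004, at 2.66, 1.59 and 54.5 CPM in sgUhrf1 tumours and 1.11, 4.89 and 5.32 CPM in sgNT tumours. The 7 fibroblast genes with a row of their own, of 12 in the list, summed to 16264, 5942 and 13448 CPM in sgUhrf1 tumours and to 8546, 9904 and 5998 CPM in sgNT tumours, so there sgUhrf1 replicate 1 was the highest. The part of either cell type in the Dpp4 values was not tested.

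Tmprss2 encodes a transmembrane serine protease of gut, prostate and airway epithelium. It stood at 38.2, 73.8 and 35.0 CPM in the sgUhrf1 tumours and at 7.28, 6.37 and 0.886 CPM in the sgNT tumours. The groups did not overlap, and sgNT replicate 3 was again the lowest. The means were 49.0 ± 21.5 CPM in sgUhrf1 and 4.85 ± 3.46 CPM in sgNT (SD, n = 3 each), and the log2 fold change was 3.32 ± 0.59 (SE). A row shared with Mx2, an interferon-induced gene next to it, covers 260 bp of Tmprss2 and stood at 228, 346 and 334 CPM in sgUhrf1 tumours and at 11.7, 6.23 and 2.30 CPM in sgNT tumours. Its log2 fold change of 5.47 ± 0.49 was larger than that of the row above; how much of it is Mx2 was not tested. The main row is named by the 110 bases of exon 3 printed above, 1.51% of the exon bases of the gene. Of its 11349 bp, 6033 lie in introns of Tmprss2 and 5206 outside the gene. How much of the count comes from them was not tested.

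Ptprh encodes a receptor tyrosine phosphatase of the microvillus membrane, also called SAP-1. It stood at 11.9, 33.3 and 21.3 CPM in the sgUhrf1 tumours and had no count in any of the 3 sgNT tumours. With 374 counts against 0, it was at least 141-fold higher in sgUhrf1 tumours, against a floor of 3 counts over the sgNT group. Of the 4187 bp of this row, 106 are exon of Ptprh, 3515 lie in its introns and 566 outside the gene. A row shared with its neighbour Syt5 covers another 557 bp of Ptprh. It stood at 24.3, 53.2 and 39.8 CPM in sgUhrf1 tumours and at 0.317, 0.148 and 0.709 CPM in sgNT tumours, a log2 fold change of 6.62 ± 0.53. In both rows sgUhrf1 replicate 2 was the highest tumour, and the sgNT tumours were at or near the floor of 0.445 to 0.532 CPM that 3 counts give in them.

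**Figure D2:**
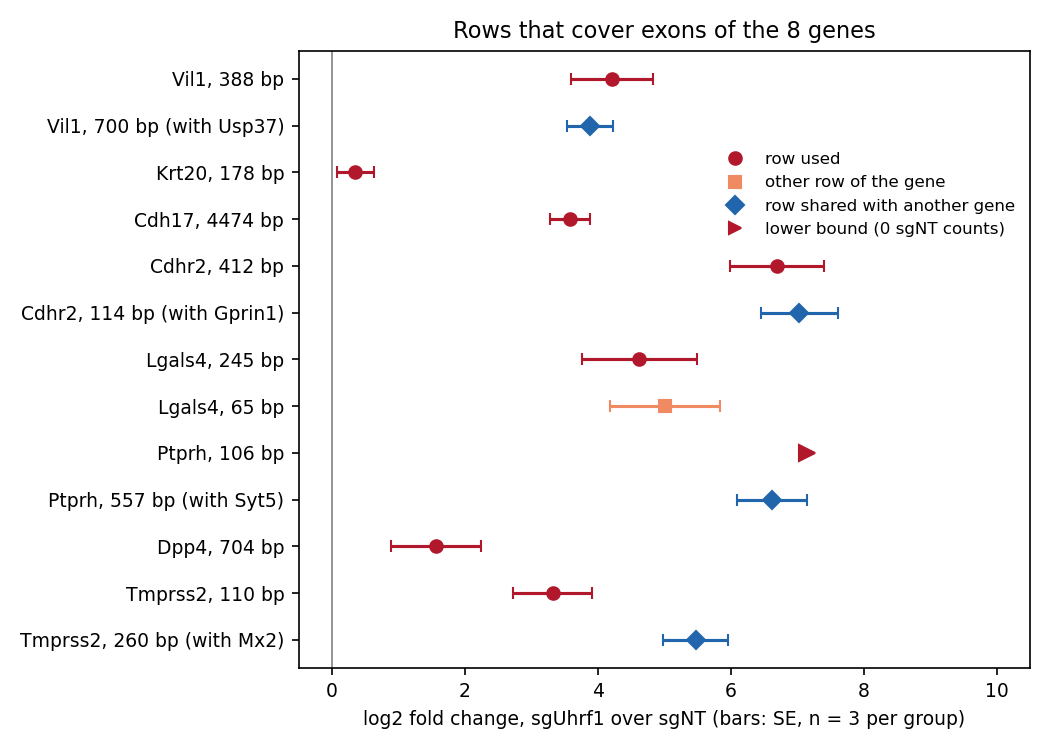
Log2 fold change, sgUhrf1 over sgNT, of every row that covers at least 50 bp of exon of the 8 genes, with bars of 1 SE (n = 3 per group); circles are the row used, the square is another row of the gene, diamonds are rows shared with a neighbouring gene and the triangle is the lower bound of Ptprh. Values run from 0.35 for Krt20 to at least 7.14 for Ptprh, and the further rows of Vil1, Cdhr2, Lgals4, Ptprh and Tmprss2 lie on the same side of 0 as the row used.

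Within the groups, the tumours differed in a common way for part of the list; whether these orders entered the choice of the members is not known. Replicate 2 was the highest of the sgUhrf1 tumours for 7 of the 8 members, the exception being Dpp4. It was the highest for 36.6% of all rows tested. Among the sgNT tumours, Vil1, Lgals4, Cdh17 and Tmprss2 all had replicate 1 highest and replicate 3 lowest, 4 of 8 members against 21.5% of all rows. The spread of the sgNT tumours was largest for Lgals4 (22.5-fold), followed by Tmprss2 (8.22-fold) and Vil1 (5.86-fold), and small for Krt20 (1.45-fold). These orders rest on 3 tumours per group and were not tested.

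**Figure D3:**
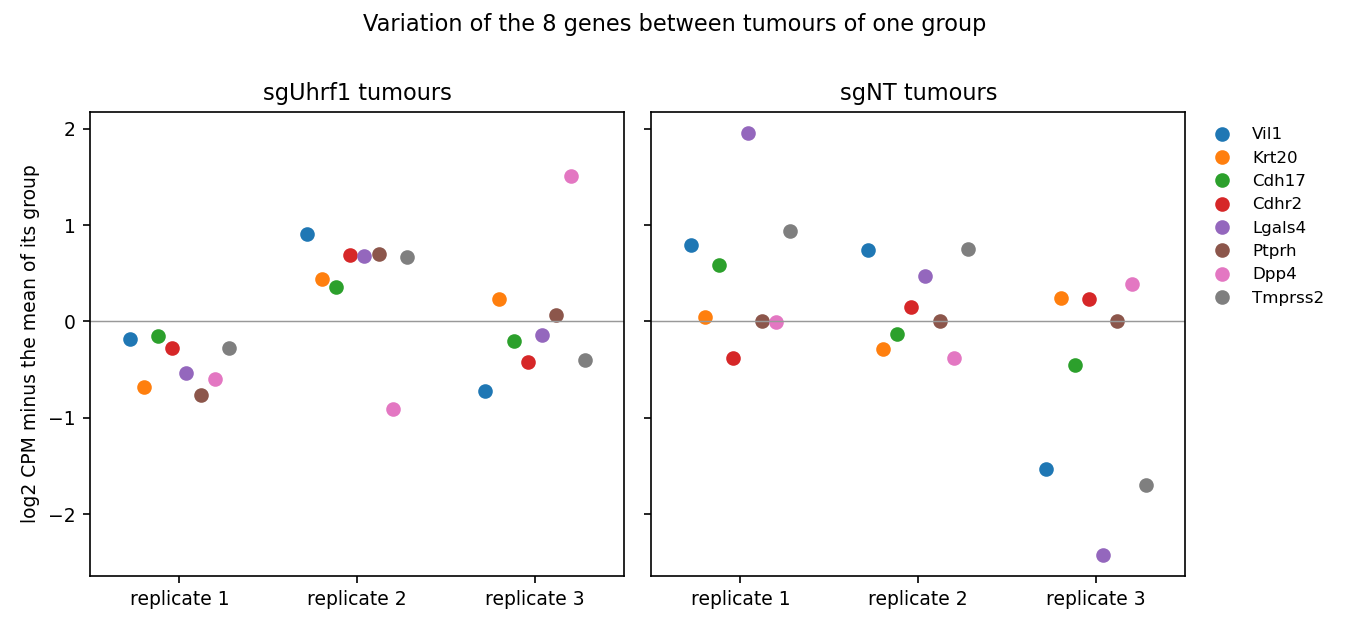
Log2 CPM (prior count 2) of the 8 genes in each tumour, set against the gene's mean over the 3 tumours of its own group, in a panel for sgUhrf1 and 1 for sgNT; each point is a tumour. In the sgUhrf1 panel replicate 2 is the highest point for 7 of 8 genes, and in the sgNT panel replicate 1 is the highest for Vil1, Cdh17, Lgals4 and Tmprss2.

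The genes most like the members were sought among 4105 other genes with a row of their own, by the Pearson correlation over the 6 tumours with the members' centred mean log2 CPM. The 5 closest were Serinc2 (r = 0.999), a serine incorporator family member, Hlcs (0.999), which attaches biotin to carboxylases, Naip6 (0.998), an inflammasome receptor with close copies, Hps5 (0.997), a subunit of a lysosome biogenesis complex, and Wdr62 (0.997), a spindle pole protein. Serinc2 stood at 144, 341 and 230 CPM in sgUhrf1 tumours and at 21.2, 16.3 and 8.51 CPM in sgNT tumours. It shares with Vil1, Cdh17, Lgals4 and Tmprss2 the order of the sgNT tumours, and sgUhrf1 replicate 2 was again the highest. A high r is common here, since the tumours fall into 2 groups that differ in many genes: 522 of the 4105 had r above 0.9.

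Other genes of the brush border did not all move with the members. Of 21 other microvillus core and linker genes, 5 were tested on a row of their own, of which 2 were higher and 1 lower, with a median log2 fold change of 0.28. That median ran from -0.31 to 1.99 over 16 alternatives, being -0.31 without sgUhrf1 replicate 2, 1.99 without sgUhrf1 replicate 3, and 1.30, 1.80 and 1.74 without sgNT replicate 1, 2 and 3. Tmigd1, a microvillus membrane protein, stood at 19.1, 15.6 and 20.2 CPM in sgUhrf1 tumours and at 0.158, 0 and 0.177 CPM in sgNT tumours. Espn, the actin bundler espin, stood at 3.36, 7.94 and 5.28 CPM in sgUhrf1 tumours and at 0.633, 0.741 and 0.354 CPM in sgNT tumours. Both had under 10 counts in each sgNT tumour and so entered the test only through the sgUhrf1 tumours, which fixes their direction. Myo1e, a class I myosin, was lower at -1.57 ± 0.32 (edgeR adjusted p = 0.0048), a call lost without sgUhrf1 replicate 1 and sgNT replicate 2 (adjusted p = 0.0916). With rows shared between genes counted too, 7 of 13 were higher and 2 lower. Among those, picked after their values were seen, the row of Pls1 (plastin 1, shared with Trpc1) had 3.24 ± 0.34 and that of Eps8l3 3.65 ± 0.38, both higher. The row of Ezr (ezrin, shared with Gm49717), picked likewise, was lower at -1.47 ± 0.28 (edgeR adjusted p = 0.00368). None of the 5 other intermicrovillar adhesion genes had a row of its own. Of 3 tested on shared rows, 2 were higher, among them the row of Myo7b, the myosin that carries this complex, at 6.41 ± 0.61.

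The digestive enzymes of the brush border could be read only in part. Of the 19 other peptidases, disaccharidases and phosphatases, 8 had a row of their own and none of these passed the filter on low counts. Sis, sucrase-isomaltase, and Akp3, an intestinal alkaline phosphatase, had 0 counts in all 6 tumours. Mgam, maltase-glucoamylase, named after its values were seen, stood at 14.2, 18.7 and 1.54 CPM in sgUhrf1 tumours and at 0, 0.148 and 0 CPM in sgNT tumours. On shared rows 3 of 5 were higher and 1 lower. Among uptake and lipid genes, 3 of 3 tested were higher, and 4 of 6 without the filter. Cyp3a13, a drug-metabolising cytochrome, stood at 13.3, 24.4 and 19.1 CPM in sgUhrf1 tumours and at 1.43, 0.889 and 0 CPM in sgNT tumours, and entered the test only through the sgUhrf1 tumours. Mogat2, which rebuilds dietary fat, was higher at 1.48 ± 0.39 (log2 fold change ± SE; edgeR adjusted p = 0.015). The Mogat2 call was lost without sgNT replicate 2, and without that tumour and sgUhrf1 replicate 1 (adjusted p up to 0.0631). The peptide transporter gene Slc15a1 had 0 counts in all tumours.

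The families of the members behaved differently from each other. Of 15 other transmembrane serine proteases, 2 were tested, both only through the sgUhrf1 tumours, so their direction was fixed. Hpn (hepsin, known from liver) stood at 9.38, 25.7 and 16.7 CPM in sgUhrf1 tumours and at 0.158, 0.148 and 0.177 CPM in sgNT tumours. Tmprss6, known for its part in iron control in liver, stood at 2.12, 3.17 and 5.06 CPM in sgUhrf1 tumours and at 0, 0.148 and 0.177 CPM in sgNT tumours. With shared rows counted too, 4 of 5 were higher and 1 lower. On shared rows, picked after their values were seen, Tmprss4 stood at 83.7, 188 and 76.3 CPM in sgUhrf1 tumours against 0.158, 0.741 and 0 CPM in sgNT tumours. A row of Tmprss11e and Tmprss11b was at 0 in all sgUhrf1 tumours against 2.85, 2.22 and 1.95 CPM in the sgNT tumours. Both of these rows entered the test only through the group where they were high, which fixes their direction. Of the other simple epithelial keratins, Krt7 was the only one tested on a row of its own and was higher at 3.55 ± 0.66 (log2 fold change ± SE; edgeR adjusted p = 0.00347). Krt8, on a shared row and named after its values were seen, did not pass (0.55 ± 0.32; edgeR adjusted p = 0.198), so 1 of 2 was higher with shared rows. Of the other cadherins, Cdh1, the E-cadherin gene, was the only one tested on a row of its own and was higher at 2.53 ± 0.29 (edgeR adjusted p = 0.000408), and with shared rows 4 of 4 were higher, among them Dsg2, picked after its values were seen, at 5.37 ± 0.30. None of the 9 other galectins had a row of its own, and 3 of 4 on shared rows were higher.

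Receptor tyrosine phosphatases other than Ptprh had none among the genes that passed the filter on low counts and were higher. Of 19, 9 were tested on a row of their own, of which none was higher and 3 lower with edgeR, with a median log2 fold change of -0.79. Of all genes tested on such a row, 20.6% were higher and 21.5% lower. At an unadjusted p of 0.05, with DESeq2 and with limma-voom, 0 of these phosphatases were higher and 3 lower as well, while without the filter 2 of 12 were higher. Ptprn2, Ptprq and Ptpru, named after their values were seen, had a row of their own that did not pass the filter. They had 47, 3 and 15 counts in the sgUhrf1 tumours and 0, 11 and 22 in the sgNT tumours. With at least 200 bp of exon needed to name a row, 0 of 4 were lower and the median was 0.34. Ptprg had under 10 counts in each sgUhrf1 tumour and so entered the test only through the sgNT tumours. The other 2 called lower were Ptpra (-2.37 ± 0.37, log2 fold change ± SE) and Ptprk (-1.34 ± 0.44), with edgeR adjusted p = 0.00151 and 0.0383. The Ptprk call was lost when sgNT replicate 2 or 3 or sgUhrf1 replicate 1 or 3 was left out (adjusted p up to 0.211).

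Of 30 genes of epithelial junctions and surface glycoproteins, 7 were tested on a row of their own, of which 4 were higher and 2 lower, with a median log2 fold change of 0.95, or 0.53 without sgUhrf1 replicate 2. Ceacam1, a surface glycoprotein of the immunoglobulin family, was higher at 6.27 ± 0.53, Cgn, the tight junction protein cingulin, at 2.90 ± 0.47, and F11r, a junction adhesion molecule, at 2.09 ± 0.25 (log2 fold change ± SE; edgeR adjusted p = 0.000136, 0.00179 and 0.000534). Itgb4, an integrin of the basal side, was higher at 0.95 ± 0.30 (edgeR adjusted p = 0.0306), a call lost without any 1 of the sgNT tumours or sgUhrf1 replicate 2 (adjusted p up to 0.0974). Cldn12 (-0.82 ± 0.24) and Tjp1 (-0.63 ± 0.16), both of tight junctions and named after their values were seen, were lower, with edgeR adjusted p = 0.0251 and 0.0149. Both calls were lost when sgNT replicate 2 or sgUhrf1 replicate 1 was left out, and that of Cldn12 also without sgNT replicate 1 or 3 (adjusted p up to 0.189).

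The transcription factors known for gut epithelium were in part higher. Of 7 tested on a row of their own, 4 were higher and none lower, with a median log2 fold change of 1.58, and 0 were lower at an unadjusted p of 0.05, with DESeq2 or with limma-voom. Foxa3 (3.82 ± 1.03), Hnf4a (3.32 ± 0.82) and Klf5 (1.58 ± 0.22) were among the higher ones, with edgeR adjusted p = 0.0174, 0.0117 and 0.00091, while Klf4, Tcf7l2 and Vdr did not pass. The Foxa3 call was lost without sgNT replicate 2 (adjusted p = 0.0628), and that of Hnf4a without sgUhrf1 replicate 1 and sgNT replicate 2 together (adjusted p = 0.053). Hnf4a stood at 267, 490 and 402 CPM in sgUhrf1 tumours and at 81.7, 31.1 and 3.01 CPM in sgNT tumours. Its sgNT tumours had the same order as those of Lgals4, Vil1, Cdh17 and Tmprss2. With shared rows counted too, 7 of 12 were higher and none lower. On such rows, picked after their values were seen, Cdx2 (2.87 ± 0.30) and Gata5 (3.44 ± 0.78) were higher. Gata6 (0.13 ± 0.23) and Foxa1 (-0.14 ± 0.35), also on shared rows, did not pass. Gata4, on a row of its own, had 0 counts in all tumours.

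Of the genes of secretory gut cells, 12 had a row of their own and 9 of these were tested. All 9 were higher with edgeR, 8 with DESeq2 and 7 without sgNT replicate 2, and 7 of the 9 entered the test only through the sgUhrf1 tumours, which fixes their direction. The median log2 fold change was 9.67, or 8.51 with the 3 genes that had no sgNT count at their lower bounds. Lypd8, Muc3 and Muc3a had no count in any sgNT tumour and were at least 724-fold, 497-fold and 322-fold higher in sgUhrf1 tumours. Oit1 stood at 360, 593 and 531 CPM in sgUhrf1 tumours and at 0.792, 0.296 and 0.532 CPM in sgNT tumours.

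**Figure D4:**
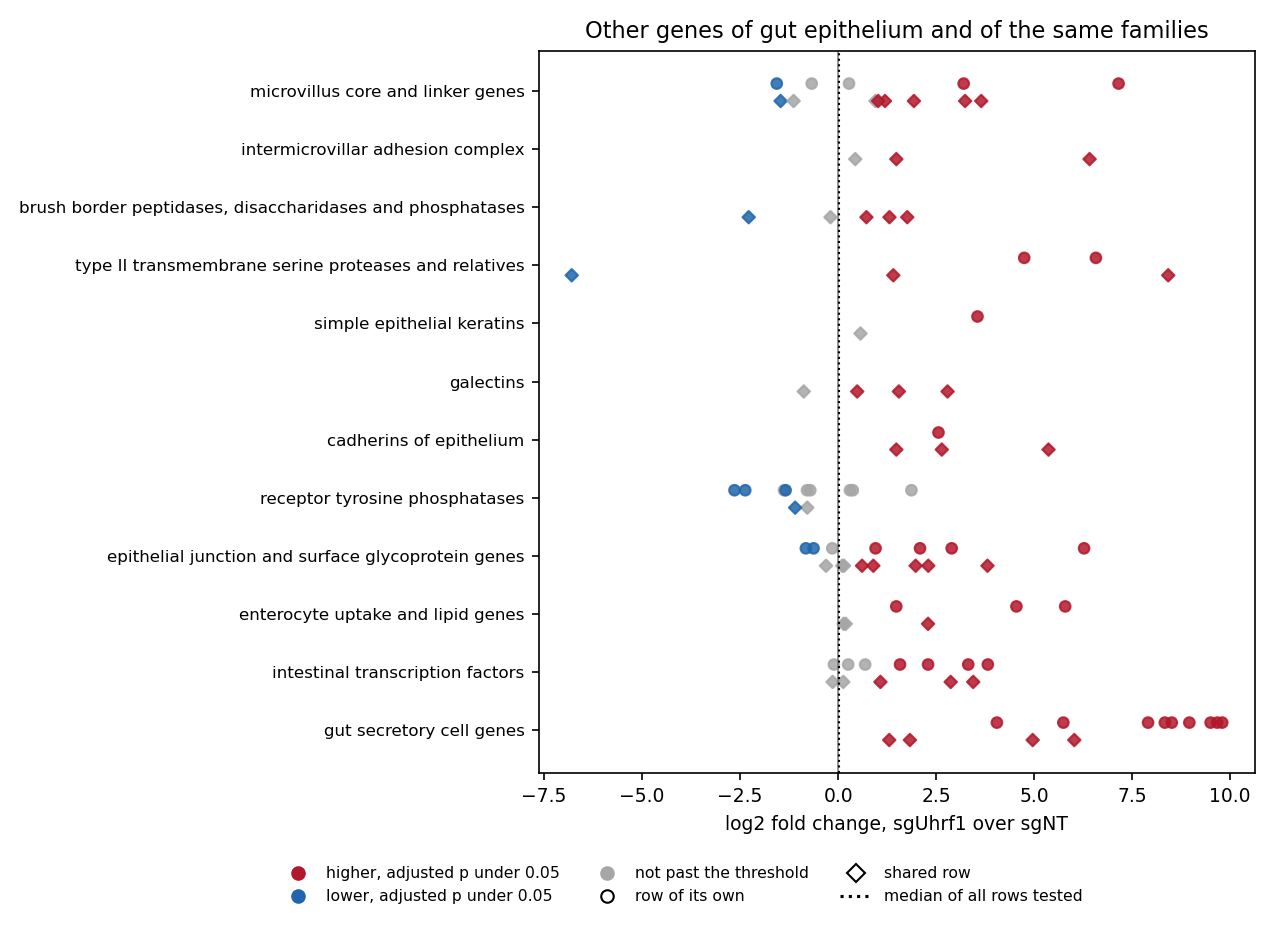
Log2 fold change, sgUhrf1 over sgNT, of the other genes of 12 lists, with 1 list per line; circles are rows of a single gene, diamonds rows shared between genes, and colours show whether the edgeR adjusted p was under 0.05 (genes without sgNT counts stand at their lower bound, and the dotted line is the median of all rows, 0.019). All 9 circles of the secretory list lie to the right, and the 3 coloured circles of the receptor tyrosine phosphatases lie to the left.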

How the data were processed

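Poly-A RNA of 6 tumours was sequenced in read pairs. The authors deposited a raw count of read pairs for each row of the annotation. Per the submitters' processing notes, fastp, STAR and featureCounts were used with GRCm38; per the file headers, featureCounts 2.0.1 counted over exons by gene name and without strand on the GENCODE M26 annotation. That annotation is of another build, so rows were named by position, as the exons of GENCODE M21 they cover: at least 50 bp of a single gene, small RNA genes set aside, and the row with most counts for each gene. This named 13432 of 53599 rows, with 41.4% of all counts; 4948 rows over several genes held 56.8% and rows over no exon 1.09%. Shared rows stayed in the fit and are given only as such.

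All rows were fitted with the quasi-likelihood test of edgeR 4.0.16 in R 4.3.3 (TMM, filterByExpr with a minimum count of 10 and total of 15, Benjamini-Hochberg over 10503 rows). Standard errors come from the same fit. Alternatives used DESeq2 1.42.0, limma 3.58.1 (voom), other scaling, filters, naming rules and left-out tumours. Libraries differed by more than sampling noise, so none was counted as a duplicate. Floors of 3 counts and binomial intervals cover counting error only.

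The members, the 12 gene lists (microvillus core, intermicrovillar complex, brush border enzymes, serine proteases, keratins, galectins, cadherins, receptor phosphatases, junctions, uptake and lipid, transcription factors, secretory) and the marker lists were chosen with earlier results of these data known. Named genes are all members, up to 4 of each list with the largest log2 fold change past the threshold, and the 5 most like the members; other genes, such as those at 0 counts, were added after their values were seen. Genes that this rule names but the text does not are not reported here.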

Additional observations from a re-analysis of the deposited data

How the results depend on the processing

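Log2 fold changes of the members kept their sign under all 14 or 15 alternatives run for each. Krt20, Tmprss2 and Ptprh had no row under the rule that needs 200 bp of exon to name one. Dpp4 was not tested under the stricter filter. Leaving out 1 tumour at a time gave 0.34 to 1.95 for Dpp4, 6.16 to 7.08 for Cdhr2 and 4.09 to 5.81 for Lgals4. The fitted value of Ptprh, 10.03 against sgNT tumours at 0, was 8.004 with limma-voom and is no bound. Vil1, Lgals4, Cdh17, Cdhr2, Tmprss2 and Ptprh were past the threshold under every alternative run, and Krt20 under none of 14. Dpp4 passed in 3 of 14: with DESeq2 (1.60), without a filter (1.48) and without sgUhrf1 replicate 2 (1.95). Since the members were chosen on this comparison, these calls are no independent support. Over all rows, 2121 were higher and 2066 lower; leaving out 1 tumour gave 1259 to 1908 lower, the fewest without sgNT replicate 2. Without both tumours rich in muscle RNA, sgUhrf1 replicate 1 and sgNT replicate 2, 1094 were higher and 771 lower. The cause was not tested.

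Replicate numbers are shared between the groups, but deviations of same-numbered tumours correlated at only -0.079, -0.021 and 0.050. These correlations cannot tell whether same-numbered tumours were handled together, which the labels do not state. With the replicate number as a block, 1838 rows were higher and 1807 lower, and the members' calls were the same.

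Of 39 other genes picked by the naming rule or added, Ezr not among them, 30 kept their call under all alternatives run. The other 9 lost it under at least 1. These genes were named for passing the threshold or after their values were seen, and some entered the test only through 1 group. Their calls were thus partly set in advance, and nothing is read from these counts. Of 288 counts for the lists, 30 moved by over 1.5 times. Another scaling shifted the median of all rows by 0.016. Member rows that hold about 100 bp of exon among introns and flanking bases, and low sgNT counts, limit the precision.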
